A study of Mus musculus with 10 samples.

Results

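The genes described here are 10 that make up or hold back the extracellular metalloproteinase system: the 4 tissue inhibitors of metalloproteinases (Timp1, Timp2, Timp3 and Timp4), the matrix metalloproteinases Mmp2, Mmp9, Mmp14 and Mmp23, and the inhibitors Reck and A2m. They were followed in RNA of the whole testis from 10 mice, each on an Affymetrix Mouse Gene ST array of its own. Of these, 5 were wild-type (WT) and 5 were Crem-/- (KO), with a neomycin resistance gene inserted across the DNA-binding domains of Crem, a transcription factor of the cAMP response. Both genotypes shared a mixed background of 129Pas and C57Bl/J, and all mice were 8 weeks old, untreated and killed at 7 am. The labels do not say whether mice were littermates. Levels are log2 values after RMA, a method that corrects background, normalises arrays to each other and averages the probes of a transcript. Each gene was taken from the features annotated with its symbol alone. All 10 genes had 1 such feature, out of 19661 genes measured. The set was chosen by the rise of Timp1 in these same arrays, set against other inhibitors and proteases, so the differences between genotypes given for the 10 genes are a description and carry no test.

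Matrix metalloproteinases are zinc enzymes that cut collagens, laminins and other matrix proteins outside the cell, and most are made as inactive proenzymes. TIMPs are small secreted proteins that block the active site of these enzymes. In the seminiferous epithelium proteases and their inhibitors act where the basement membrane lies and where germ cells attach to Sertoli cells, and Sertoli cells are known to secrete TIMPs. In spermatogenesis CREM drives genes of round spermatids through cAMP response elements (CRE) in their promoters, and germ cells of Crem-/- mice do not mature past that stage.

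Crem, as the check of the labels, lay at 10.95 ± 0.06 in WT and at 9.24 ± 0.15 in KO (SD, n = 5 each), which gives a difference of −1.71 ± 0.07 (SE) and an adjusted p of 3e-10 by limma. The array medians lay between 7.11 and 7.15. By limma 8705 genes were called changed at an adjusted p under 0.05, which was 44.3% of those tested. Of all genes 31.1% were called higher in KO and 13.2% lower, and 32.7% had KO and WT ranges that did not overlap. Summed marker levels moved with genotype. The summed linear level of 8 elongating spermatid markers was 74222 to 89396 in WT and 5548 to 11907 in KO. That of 7 round spermatid markers was 29364 to 31681 in WT and 21129 to 26446 in KO. Of these 7, 5 were called lower and 0 higher, with changes spread from −4.29 to 0.15. Spermatocyte markers, 5 of 8 called higher and 0 lower, summed to 8290 to 9026 in WT and 10032 to 10848 in KO. The sums of 10 Sertoli markers were 8082 to 9136 in WT and 9535 to 11991 in KO, and those of 8 peritubular myoid markers overlapped, at 4941 to 5764 in WT and 4399 to 5337 in KO. In RNA of a whole organ, fewer cells of a type and less RNA per cell cannot be told apart. No marker was at 0, since RMA values have no true zero.

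The promoters of the 4 genes whose WT and KO ranges did not overlap are shown first, because they are the sequences beside which the changes of Timp1, Timp4, Mmp14 and Reck are read, in a mouse that lacks a promoter-binding factor. Each window runs from 250 bases before to 50 bases after the start of the gene (RefSeq, build GRCm38.p6), 5′ to 3′ on the strand of the gene. Capitals mark matches to a motif on either strand. The motifs were the full CRE TGACGTCA, its short form TGACG, the AP-1 consensus TGACTCA, an AP-1 variant TGAGTAA, the GC box GGGCGG and the TATA box TATAAA. A full CRE also holds the short form.
Timp1 (chrX:20869916-20870215, plus strand): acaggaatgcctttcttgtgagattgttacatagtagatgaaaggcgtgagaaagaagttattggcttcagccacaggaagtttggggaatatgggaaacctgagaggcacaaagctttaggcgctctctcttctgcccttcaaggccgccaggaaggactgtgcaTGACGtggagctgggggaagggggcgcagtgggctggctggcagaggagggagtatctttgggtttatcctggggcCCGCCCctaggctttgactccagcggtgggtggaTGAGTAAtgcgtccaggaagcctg
Timp4 (chr6:115252156-115252455, minus strand): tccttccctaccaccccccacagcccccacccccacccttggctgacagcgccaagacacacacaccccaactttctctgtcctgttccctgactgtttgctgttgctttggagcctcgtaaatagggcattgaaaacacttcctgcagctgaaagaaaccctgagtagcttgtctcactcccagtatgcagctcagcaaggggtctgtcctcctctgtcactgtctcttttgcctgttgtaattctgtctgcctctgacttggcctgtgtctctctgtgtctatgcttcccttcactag
Mmp14 (chr14:54431348-54431647, plus strand): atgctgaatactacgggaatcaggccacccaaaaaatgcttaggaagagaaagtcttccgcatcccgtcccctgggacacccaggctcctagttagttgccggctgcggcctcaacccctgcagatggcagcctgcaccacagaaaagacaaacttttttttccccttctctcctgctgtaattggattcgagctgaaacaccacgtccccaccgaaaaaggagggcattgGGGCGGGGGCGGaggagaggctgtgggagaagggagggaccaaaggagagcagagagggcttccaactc
Reck (chr4:43875280-43875579, plus strand): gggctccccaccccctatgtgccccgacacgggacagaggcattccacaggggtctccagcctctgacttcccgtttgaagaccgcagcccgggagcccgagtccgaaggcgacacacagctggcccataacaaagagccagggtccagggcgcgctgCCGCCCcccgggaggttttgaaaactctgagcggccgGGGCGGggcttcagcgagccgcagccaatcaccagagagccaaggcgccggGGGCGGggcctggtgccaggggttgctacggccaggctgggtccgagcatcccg

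The Timp1 window held TGACG, the short CRE, which began at −84 from the start site, a GC box at −8 and TGAGTAA at +27. The Timp4 window held none of the motifs. The Mmp14 window held 2 GC boxes in a row, and that of Reck held 3. GC boxes were not particular to the genes shown. Windows not shown held 2 for Timp3, 2 in a window of Mmp23 and 1 for Timp2. Windows were found for 7 of the 10 genes. None of their 8 windows held the full CRE, which 1.79% of all 32851 windows of this length held. The short CRE was in 20.8% of all windows, TGAGTAA in 2.68%, TGACTCA in 5.2%, the GC box in 35.7% and the TATA box in 13.6%. The motifs, the variant TGAGTAA among them, were picked for a set chosen by Timp1. The shares of all windows are therefore no test of the matches in Timp1. A match is only a run of letters, and binding was not measured.

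Timp1, a secreted inhibitor of most soluble matrix metalloproteinases, was the gene of the set with the largest difference. Its level was 6.19, 6.30, 6.12, 6.30 and 6.39 in WT replicates 1 to 5, and 7.94, 7.87, 8.30, 7.91 and 8.04 in KO replicates 1 to 5. Every KO array lay far above every WT array, and KO replicate 3 was the highest. The means were 6.26 ± 0.10 in WT and 8.01 ± 0.17 in KO (SD, n = 5 each). The difference was 1.75 ± 0.08 (SE) on the log2 scale, or 3.37-fold. Over all genes the median change was 0.07, with the 5th and 95th percentiles at −0.84 and 0.58. Counting Timp1 itself, 47 genes rose at least as much, which is 0.239% of those measured.

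Timp4, the TIMP with the narrowest known tissue range, lay on the other side. WT replicates 1 to 5 were at 6.40, 6.87, 6.70, 6.35 and 6.76, and KO replicates 1 to 5 at 5.70, 5.79, 5.95, 5.78 and 5.68. Every KO array was below every WT array, and the WT arrays were spread wider, with replicates 1 and 4 low. The means were 6.62 ± 0.23 and 5.78 ± 0.10 (SD, n = 5 each), a change of −0.83 ± 0.10 (SE), or 1.78-fold lower in KO. Of all genes 5.03% fell at least as much.

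Timp2, which inhibits these enzymes but also joins pro-Mmp2 to Mmp14 on the cell surface, differed little. Its level was 10.35, 10.11, 10.09, 10.31 and 10.19 in WT replicates 1 to 5 and 10.44, 10.29, 10.71, 10.36 and 10.61 in KO replicates 1 to 5. KO replicate 2 lay below WT replicates 1 and 4, so the groups overlapped. The change was 0.27 ± 0.09 (SE), or 1.21-fold. Timp3 is held in the matrix and blocks ADAM and ADAMTS proteases as well. It lay at 8.57, 8.55, 8.40, 8.55 and 8.52 in WT replicates 1 to 5 and at 8.69, 8.49, 8.72, 8.73 and 8.70 in KO replicates 1 to 5. KO replicate 2 was within the WT range and the other 4 KO arrays were above it. The change was 0.15 ± 0.06 (SE).

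**Figure D1:**
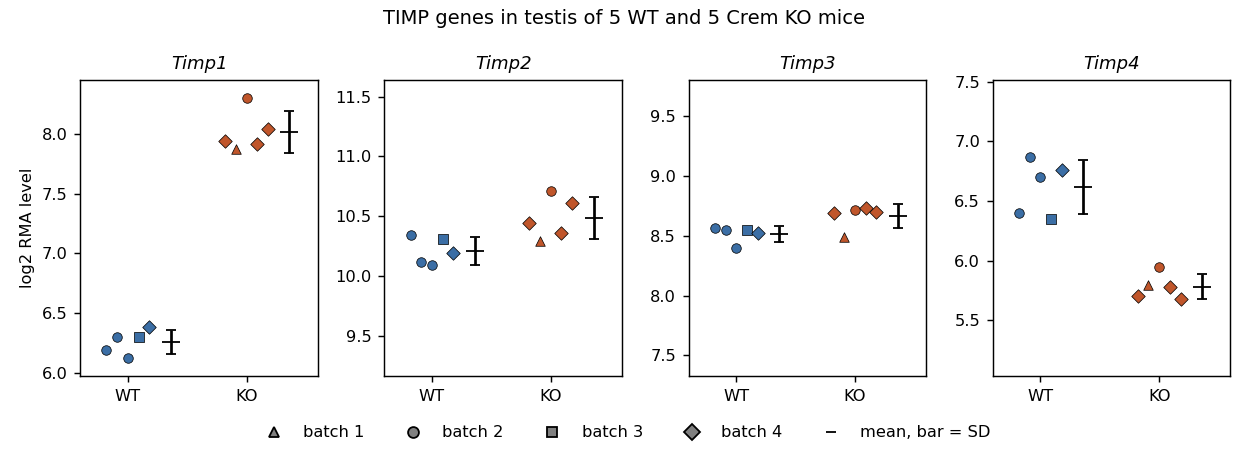
Log2 RMA level (vertical axis) of the 4 TIMP genes in 5 WT and 5 KO arrays, where symbols mark the 4 batches and bars give each group's mean and SD. All panels span the same range, and Timp1 lies higher in all 5 KO arrays, Timp4 lies lower in all 5, and the groups of Timp2 and Timp3 overlap.

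Among the proteases the clearest difference was that of Mmp14, the membrane-type enzyme that activates pro-Mmp2 at the cell surface and that Timp1 inhibits only poorly. Its level was 8.91, 8.75, 8.75, 8.77 and 8.51 in WT replicates 1 to 5 and 9.31, 9.13, 9.36, 9.17 and 9.14 in KO replicates 1 to 5. The groups did not overlap. KO replicates 1 and 3 were the highest arrays and WT replicate 5 the lowest. The means were 8.74 ± 0.14 and 9.22 ± 0.10 (SD, n = 5 each), a change of 0.48 ± 0.08 (SE), or 1.40-fold.

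Mmp2 and Mmp9 are the gelatinases, which cut denatured collagen and the type IV collagen of basement membranes. Mmp2 was at 7.22, 7.27, 7.25, 6.92 and 7.25 in WT replicates 1 to 5 and at 7.35, 7.37, 7.36, 7.38 and 7.20 in KO replicates 1 to 5. In both groups 4 arrays lay close together and 1 lay low, and KO replicate 5 fell within the WT range. The change was 0.15 ± 0.07 (SE). Mmp9 was at 6.05, 5.94, 6.19, 5.94 and 5.86 in WT replicates 1 to 5 and at 5.62, 6.39, 6.23, 6.17 and 6.06 in KO replicates 1 to 5. The KO arrays held both the highest and the lowest value, in replicates 2 and 1. Its change, 0.10 ± 0.12 (SE), was smaller than its error.

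Mmp23 is anchored by an amino-terminal membrane segment and is known from reproductive organs. Its level was 6.47, 6.25, 6.21, 6.20 and 6.52 in WT replicates 1 to 5 and 6.42, 6.47, 6.42, 6.40 and 6.36 in KO replicates 1 to 5. All KO arrays lay between the lowest and the highest WT array, and the change was 0.08 ± 0.07 (SE). Its gene overlaps the end of Mib2 on the same strand in RefSeq.

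Reck is an inhibitor tethered to the cell surface that restrains several of these enzymes, Mmp14 among them. WT replicates 1 to 5 were at 8.20, 8.39, 8.41, 8.22 and 8.44 and KO replicates 1 to 5 at 8.80, 8.59, 8.60, 8.54 and 8.65. The groups did not overlap, though the lowest KO array was only just above the highest WT array. The change was 0.30 ± 0.07 (SE), or 1.23-fold. A2m encodes alpha-2-macroglobulin, a large plasma protein that traps proteases of every class. Its level was 6.52, 7.00, 7.17, 6.60 and 7.08 in WT replicates 1 to 5 and 7.01, 6.27, 6.88, 7.63 and 7.12 in KO replicates 1 to 5. It varied most within groups, with SDs of 0.30 in WT and 0.49 in KO, and its change of 0.10 ± 0.21 (SE) was within that spread.

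**Figure D2:**
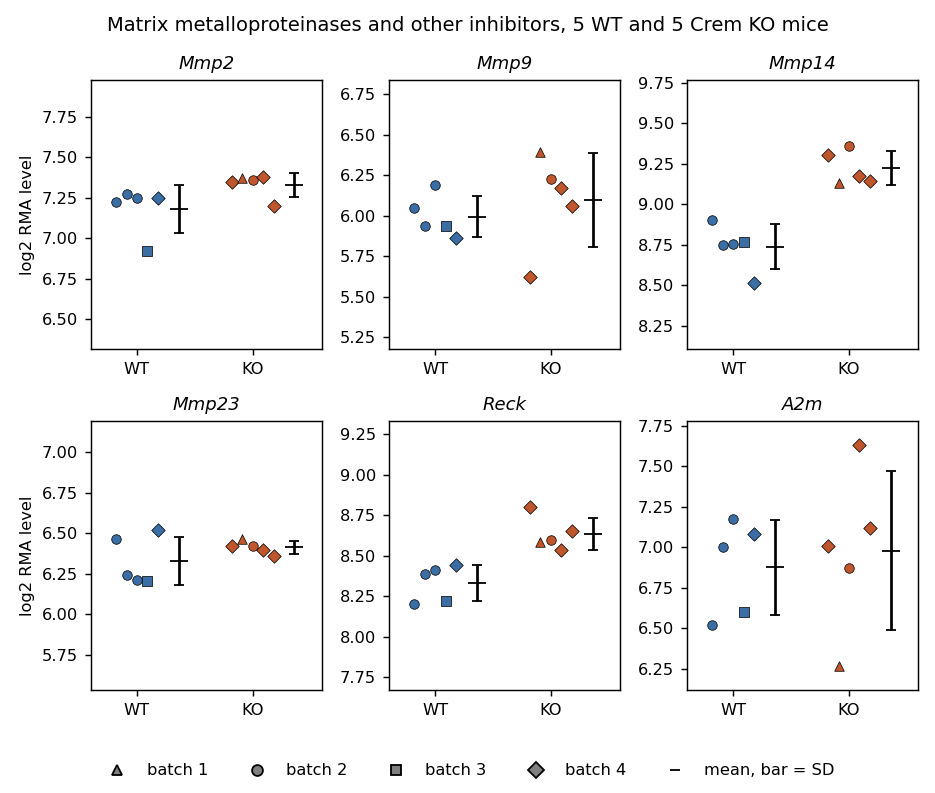
Log2 RMA level (vertical axis) of 4 matrix metalloproteinase genes and of the inhibitors Reck and A2m in 5 WT and 5 KO arrays, where symbols mark the 4 batches and bars give each group's mean and SD. All panels span the same range, and the groups lie apart for Mmp14 and Reck and overlap for Mmp2, Mmp9, Mmp23 and A2m.

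By the threshold used for all genes, 4 of the 10 (Timp1, Timp2, Mmp14 and Reck) were called higher in KO, beside 31.1% of all genes, and 1 (Timp4) was called lower, beside 13.2%. The other 5 were not called. Ranges did not overlap in 4 of 10, beside 32.7% of all genes. KO means were higher than WT means in 9 of the 10. The share of all genes with a higher KO mean was not counted. The median change was 0.15, beside 0.07 over all genes. The count of 9 depends on the scaling, as arrays centred on housekeeping genes including B2m show. There the changes of Mmp9, Mmp23 and A2m were −0.04, −0.06 and −0.04, and those of Timp3 and Mmp2 were 0.004 and 0.002. The choice of the set with Timp1 in view means that these counts say nothing of metalloproteinases as a class.

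Within arrays the difference between Timp1 and each other gene was larger in every KO array than in any WT array. The change of Timp1 was above that of Timp2 by 1.48 ± 0.07, of Timp3 by 1.61 ± 0.08 and of Timp4 by 2.59 ± 0.12 (SE of the difference). It was above that of Mmp14 by 1.27 ± 0.12, the smallest of these gaps, and above that of Mmp2 by 1.61 ± 0.12 and of Mmp9 by 1.65 ± 0.18. These are differences between changes of log2 level, so a factor that scales a whole array leaves them unchanged, though quantile normalisation need not. They do not compare the amount of one RNA with that of another. The change of Mmp14 was above that of Reck by 0.18 ± 0.12 and above that of its partner Timp2 by 0.21 ± 0.09, and in both pairs the within-array differences of the groups overlapped.

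The arrays came, by their labels, in 4 batches. Both genotypes were present only in batch 2, with WT replicates 1, 2 and 3 and KO replicate 3, and in batch 4, with WT replicate 5 and KO replicates 1, 4 and 5. KO replicate 2 was the sole array of batch 1 and WT replicate 4 that of batch 3. Timp1 was higher in KO by 2.10 within batch 2 and by 1.58 within batch 4, and with batch as a block its change was 1.84 ± 0.11 (SE). Timp4 changed by −0.71 and −1.03 within these batches, Mmp14 by 0.56 and 0.69, and Reck by 0.26 and 0.22. For Timp2 the values were 0.53 and 0.28. Mmp23 changed by 0.12 in batch 2 and by −0.12 in batch 4, and A2m by −0.02 and 0.17, so neither kept a sign. The blocked value draws only on these same batches.

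KO replicate 3, the KO array of batch 2, was the highest KO array for 4 of the 10 genes, Timp1, Timp2, Timp4 and Mmp14, and the lowest for none. KO replicate 2 was the lowest for 5. KO replicate 3 also had the highest summed level of the KO arrays for the Sertoli, Leydig, peritubular myoid, endothelial, macrophage and stromal markers. Without KO replicates 2 and 3 the change of Timp1 was 1.71, of Timp4 −0.89, of Mmp14 0.47 and of Reck 0.33. Over the 11 other settings the change of Timp1 lay between 1.58 and 2.10, that of Timp4 between −1.03 and −0.71 and that of Mmp14 between 0.34 and 0.69. These are the same values by which the set was chosen, so they are no support for it, and in the fits of batch 2 and batch 4 alone 1 genotype is a single array. The call of Timp2 was lost without WT replicate 2, WT replicate 3, KO replicate 3 or KO replicate 5, in batch 4 alone and with both housekeeping scalings, where its changes were 0.20 without B2m and 0.13 with it. That of Reck was lost with batch as a block, within either batch and with B2m in the scaling (0.16). Timp3 became called without KO replicate 2, without both KO replicates 2 and 3 (0.19) and when quantile normalisation was applied once more.

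**Figure D3:**
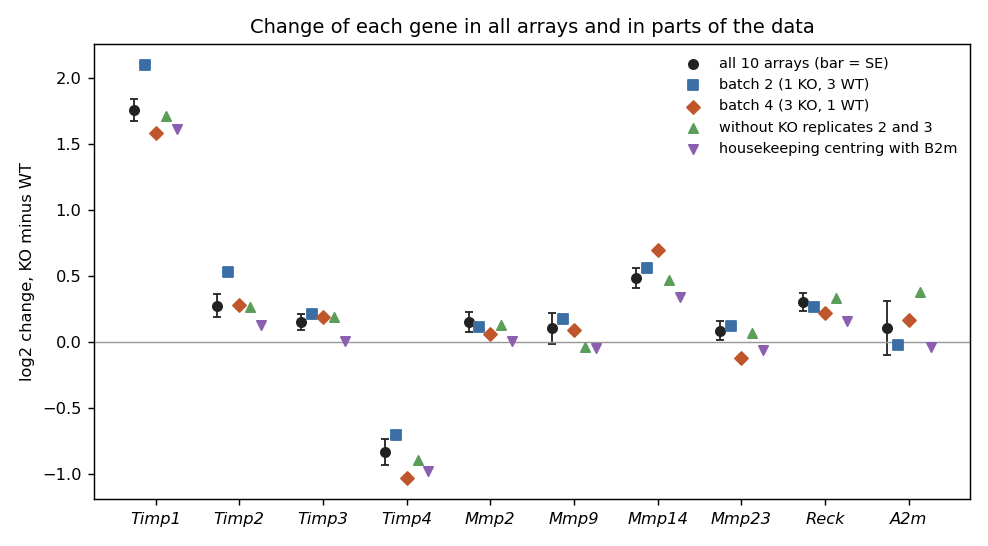
Log2 change, KO minus WT (vertical axis), of the 10 genes in all arrays (black, bar = SE), within batch 2, within batch 4, without KO replicates 2 and 3, and after centring the arrays on housekeeping genes with B2m. Timp1 stays between 1.58 and 2.10 and Timp4 between −0.71 and −1.03, while Mmp9, Mmp23 and A2m lie on both sides of 0.

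In the mouse genome every Timp gene shares its locus with another gene. By RefSeq, Timp1 lies inside Syn1 and on its opposite strand, Timp3 inside Syn3 and Timp4 inside Syn2, again on the opposite strand. Syn1, Syn2 and Syn3 encode synapsins, which tether vesicles in nerve endings. Cep295nl lies inside Timp2. These 4 genes were taken for their position, and each was measured by its own feature.

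Syn2, the host of Timp4, fell by about as much as Timp4 did. It ranged from 7.44 to 7.55 in WT and from 6.44 to 6.83 in KO, a change of −0.87 ± 0.07 (SE, limma adjusted p = 3.85e-07). The hosts of Timp1 and Timp3 gave smaller values. For Syn1 the groups overlapped, with a change of −0.18 ± 0.08 (SE, limma adjusted p = 0.101). Syn3 had a change of −0.14 ± 0.06 (SE, limma adjusted p = 0.0799), and Syn1 and Syn3 were both called lower with either housekeeping scaling and without WT replicate 4. Cep295nl fell from 12.20 to 12.31 in WT to between 8.69 and 9.22 in KO, a change of −3.37 ± 0.09 (SE, limma adjusted p = 6.36e-12), while the surrounding Timp2 was higher in KO by 0.27. Whether probes of one gene of a pair also read RNA of the other was not tested.

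**Figure D4:**
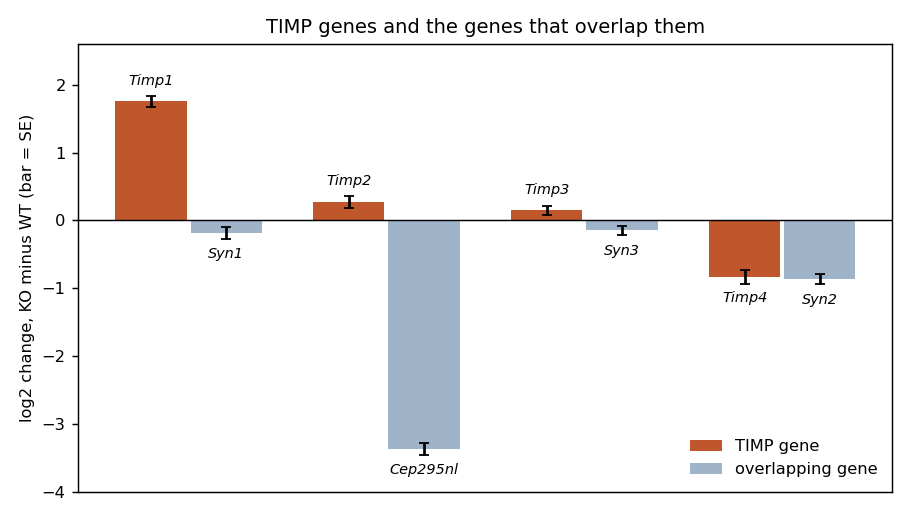
Log2 change, KO minus WT (vertical axis, bars from 0, error bar = SE, 5 arrays per group), of the 4 TIMP genes and of the gene that overlaps each. Timp4 and Syn2 changed by −0.83 and −0.87, whereas Timp1 and Syn1, and Timp2 and Cep295nl, have changes of opposite sign.

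The other matrix metalloproteinases, collagenases, stromelysins and further membrane-type enzymes, showed no call. Their WT means, from 3.92 (Mmp1b) to 6.72 (Mmp11), all lay below the array medians of 7.11 to 7.15. The WT means of Timp1, Timp4, Mmp9, Mmp23 and A2m lay below the medians too, at 6.26, 6.62, 5.99, 6.33 and 6.88. So did those of some genes named below, such as Adamts20 at 6.76 and Plau at 6.14. Whether any of these genes was expressed was not tested. Of the 18 other matrix metalloproteinases measured, 0 were called higher and 0 lower by limma. Their median change was −0.02, with a range of −0.17 to 0.10. At an unadjusted p under 0.05 there were 2, Mmp28 and Mmp13, both lower, which are named here after their values were seen. Mmp28 ranged from 6.43 to 6.81 in WT and from 6.42 to 6.64 in KO, a change of −0.17 ± 0.08 (SE, limma adjusted p = 0.083). Mmp13, a collagenase, changed by −0.12 ± 0.06 (SE, limma adjusted p = 0.0957). With B2m in the housekeeping scaling 4 of the 18 were called lower.

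The related ADAMTS, astacin and membrane-bound ADAM proteases were called at shares near those of all genes, 10 of 30 measured higher, beside 31.1%, and 4 lower, beside 13.2%, with a median change of 0.01. Adamts5, an aggrecanase, rose from 7.48 ± 0.17 to 8.08 ± 0.23 (SD, n = 5 each, change 0.59 ± 0.11 SE, limma adjusted p = 0.00073). Adam10, which releases the outer part of Notch and other surface proteins, rose by 0.51 ± 0.07 (SE, limma adjusted p = 9.92e-05). Adam17, the sheddase of TNF and a target of Timp3, rose by 0.24 ± 0.06 (SE, limma adjusted p = 0.00537). It was named for that role after its value was seen. Adamts20 fell from 6.76 ± 0.10 to 6.08 ± 0.09 (SD, n = 5 each, change −0.68 ± 0.07 SE, limma adjusted p = 2.48e-06). Adamts17 fell by 0.38 on the log2 scale (limma adjusted p = 0.00126).

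Of 24 other extracellular protease inhibitors and relatives 8 were called higher and 2 lower, beside the same 31.1% and 13.2% of all genes, with a median change of 0.14. Both that fell are known for other roles. Cd109, an anchored relative of A2m that also binds TGF-beta, fell from 9.10 ± 0.17 to 7.79 ± 0.25 (SD, n = 5 each, change −1.31 ± 0.12 SE, limma adjusted p = 7.72e-07), and Pcolce2, which enhances the cutting of procollagen by Bmp1, fell by 0.92 (limma adjusted p = 3.66e-08). Serping1, the inhibitor of complement C1, rose from 9.10 ± 0.10 to 9.80 ± 0.22 (SD, n = 5 each, limma adjusted p = 5.96e-05), with changes of 1.04 and 0.49 within batches 2 and 4. Serpina3n, a serpin of the acute phase, had a change of 1.04 ± 0.30 (SE, limma adjusted p = 0.0122), but its WT arrays ran from 6.92 to 8.69, its changes within batches 2 and 4 were 1.43 and 0.54, and the call was lost without KO replicates 2 and 3.

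In plasminogen activation, the protease cascade that can activate pro-metalloproteinases, 3 of 6 genes were called higher and 1 lower, beside 31.1% and 13.2% of all genes. Both activators rose: Plat, the tissue type, by 0.44 ± 0.08 (SE, limma adjusted p = 0.000724) and Plau, the urokinase type, from 6.14 ± 0.10 to 6.52 ± 0.12 (SD, n = 5 each, change 0.38, limma adjusted p = 0.000929). Within batches 2 and 4 Plau changed by 0.29 and 0.53. The plasminogen receptor Plgrkt rose by 0.47 (limma adjusted p = 0.000681). Plg, the plasminogen gene itself, had a change of −0.30 ± 0.11 (SE, limma adjusted p = 0.0463). The groups overlapped, and the call of Plg was lost in 9 of the 10 fits that left out 1 array, all except that without KO replicate 2.

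Of 38 basement membrane and matrix genes, the substrates of these proteases, 13 were called higher, beside 31.1% of all genes, and 1 lower, beside 13.2%, with a median change of 0.14. The laminin gene Lamb2 rose from 8.55 ± 0.07 to 9.02 ± 0.19 (SD, n = 5 each, limma adjusted p = 0.000594), Lamb1 by 0.45 (limma adjusted p = 0.00157) and Lamc1 by 0.44 (limma adjusted p = 0.000112). Dcn, the collagen-binding proteoglycan decorin, rose by 0.69 ± 0.16 (SE, limma adjusted p = 0.00299), with changes of 1.16 and 0.48 within batches 2 and 4. It is also 1 of the 7 stromal markers, whose summed level was 2679 to 3455 in WT and 3363 to 5519 in KO. Nid1, which links laminin to collagen IV, had a change of −0.22 ± 0.07 (SE, limma adjusted p = 0.0273). The call of Nid1 was lost without WT replicate 2, 3 or 4 or KO replicate 2 or 4, without both KO replicates 2 and 3, and when batch was blocked, and its change within batch 4 was 0.0007.

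Of 21 surface and activation partners 12 were called higher and 1 lower, beside 31.1% and 13.2% of all genes, and their median change, 0.29, was the highest of the lists of proteases, inhibitors, substrates and partners. Cd63, the tetraspanin that binds Timp1 on cells, rose from 7.88 ± 0.12 to 8.47 ± 0.16 (SD, n = 5 each, change 0.59 ± 0.08 SE, limma adjusted p = 6.59e-05). Efemp1, a fibulin that binds Timp3, rose by 0.81 ± 0.07 (SE, limma adjusted p = 3.19e-07), and the tetraspanin Cd151 rose by 0.53 (limma adjusted p = 6.43e-05). Lcn2, a lipocalin that in human neutrophils binds Mmp9, was at 11.52 ± 0.37 in WT and 12.54 ± 0.37 in KO (SD, n = 5 each, change 1.02, limma adjusted p = 0.000755). Its change was 1.70 within batch 2 and 0.34 within batch 4. Pcsk6, a convertase that cuts proproteins, fell by 0.30 (limma adjusted p = 0.00203, with −0.25 and −0.33 within batches 2 and 4), while Furin, the convertase that activates pro-Mmp14, rose by 0.40 ± 0.08 (SE, limma adjusted p = 0.00098). Furin was named for that role after its value was seen.

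**Figure D5:**
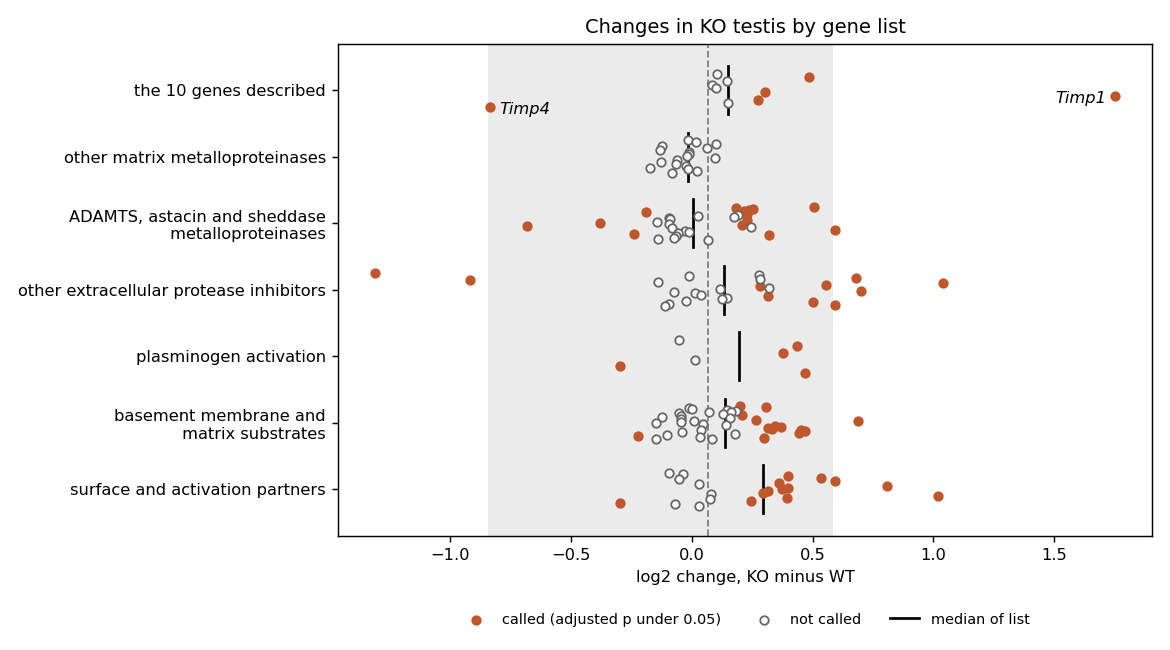
Log2 change, KO minus WT (horizontal axis), of the 10 genes described and of 6 lists of related genes, 1 point per gene. Filled points were called at an adjusted p under 0.05, black bars are medians of a list, and the shading and dashed line give the 5th to 95th percentile and the median of all genes. Timp1 at 1.75 lies beyond every gene of these lists. The other matrix metalloproteinases, whose WT means all lay below the array medians, hold no called gene. The WT means of Timp1 and Timp4 also lay below the array medians.

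Fshr, the receptor of follicle-stimulating hormone, which controls Timp1 in Sertoli cells, ranged from 6.63 to 6.90 in WT and from 7.00 to 7.34 in KO, a change of 0.35 ± 0.07 (SE, limma adjusted p = 0.00182). The study's account of Sertoli cells also takes in TNF and its receptor Tnfrsf1a. That receptor rose by 0.38 (limma adjusted p = 0.00128), and Tnfrsf1b, the other TNF receptor, added here, by 0.27 (limma adjusted p = 0.0103). Tnf, given as their ligand although it was not called, had a change of −0.12 ± 0.08 (SE, limma adjusted p = 0.299). The study named Fshr and Timp1 together from these arrays, so the direction of Fshr is not independent of the choice of Timp1. The study also reported the rise of Tnfrsf1a from these same arrays. The p-values of Fshr and Tnfrsf1a are thus no fresh support. Within batches 2 and 4 Fshr changed by 0.33 and 0.34, Tnfrsf1a by 0.51 and 0.31, and Tnfrsf1b by 0.43 and 0.16. The call of Tnfrsf1b was also lost with both housekeeping scalings. The AP-1 and ETS families of factors are known to act on Timp1 transcription. Of 11 factors of these families and of the RUNX family, 2 were called higher and 2 lower, beside 31.1% and 13.2% of all genes. Jund fell from 8.81 ± 0.14 to 7.91 ± 0.05 (SD, n = 5 each, limma adjusted p = 1.91e-07) and Fosb by 0.37 (limma adjusted p = 0.00177, with −0.23 and −0.43 within batches 2 and 4). Jun and Ets2 had changes of 0.24 and 0.30 (limma adjusted p = 0.0116 and 0.0212), and both calls were lost with the housekeeping scalings. That of Ets2 was also lost with batch as a block and without WT replicate 3, KO replicate 1 or KO replicate 5. Within batches 2 and 4 Jun changed by 0.33 and 0.17, and Ets2 by 0.16 and 0.48.

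The genes with the profile most like that of Timp1 were found by the root mean square difference between log2 profiles over the 10 arrays, each centred on its own mean. The nearest were Zc3h12c, an RNase-type zinc finger gene, at 0.145, Oca2 at 0.150, the R-spondin receptor gene Lgr5 at 0.157, Adgre1 at 0.163 and the stress-response factor gene Nfe2l2 at 0.168. Their changes were 1.81, 1.72, 1.67, 1.52 and 1.79. The difference of Timp1 between genotypes was large beside its SDs, so this measure mostly returns genes with a like change. It is thus no further support for a link to Timp1. Of the set itself Mmp14 was nearest, at 0.656, with 1370 genes nearer, and Timp4 farthest, at 1.30, with 18659 genes nearer.

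Adgre1 encodes an adhesion receptor used as a macrophage marker. Of 10 macrophage markers, Adgre1 among them, 9 were called higher in KO and 0 lower, beside 31.1% and 13.2% of all genes. Their summed linear level was 1772 to 2003 in WT and 2402 to 3956 in KO. Leydig markers were called higher in 5 of 6, with sums of 7245 to 8745 in WT and 9838 to 15702 in KO. Sertoli markers were called higher in 3 of 10, near the 31.1% of all genes. Endothelial markers were called higher in 3 of 8, also beside 31.1% of all genes. These were Tek, Cdh5 and Vwf, with changes of 2.05, 1.15 and 0.58. The other 5 lay between −0.06 and 0.12, the median was 0.10, and the sums, 904 to 960 in WT and 1470 to 1649 in KO, rest on those 3. The sums of these 4 lists did not overlap between genotypes. Those of the spermatocyte, round spermatid and elongating spermatid markers did not overlap either. Ranges lay apart in 32.7% of all genes, and also for Timp1, Timp4, Mmp14 and Reck. The part of any cell type in the results was not tested.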

How the data were processed

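The deposited values are log2 expression levels that the authors made by RMA with XPS, a Bioconductor package, on the core transcripts and control probes, with background from antigenomic probes and quantile normalisation. The package version and the genome build of the probe annotation are not given in the sources used here. The table had 35557 rows. Leaving out 9868 rows without a value in any array gave 25689 features, and no filter was applied to them.

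Names came from GEO's platform annotation, brought up to date by gene identifier with mouse RefSeq (GRCm38.p6). Exactly 1 symbol was attached to 20777 features, of which 20696 matched RefSeq, while 232 had several and 4680 had none. A gene is its feature with the highest mean over the 10 arrays, which gave 19661 genes, 564 with more than 1 feature.

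The genotypes were compared with limma 3.58.1 under R 4.3.3, by lmFit and eBayes without covariates. Two-sided p-values were adjusted by the Benjamini-Hochberg method across every feature, and a gene was called at an adjusted p under 0.05. A change is KO minus WT. The number of arrays limits the precision, with a median SE of 0.0765. Replicate numbers follow the order of accession and pair no mice. Litters were not given. The p-values weigh the difference between genotypes against the spread of these mice within genotype, which also holds any differences between batches. By the study's quality measures, RNA integrity was higher in each adult KO mouse measured than in any adult WT mouse measured. Those values were not linked to single arrays here, and any effect of RNA quality was not tested.

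The members and lists were chosen with earlier results of these data known. The genes named are all members, in each list the 4 called genes with the largest change and the called gene that moved most against the median, the 5 genes nearest to Timp1, genes overlapping a Timp gene, and Crem. Others are marked. Alternatives were 11 settings of normalisation, scaling, batch, variance moderation, filter, feature choice and KO replicates 2 and 3, and leaving out each of the 10 arrays. The housekeeping list held 14 genes, 10 of them measured.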

Additional observations from a re-analysis of the deposited data

Results flagged for a closer look

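Of 20 groups of 5 arrays tested for the 10 genes, 4 held an array far from the others by Dixon's test, where chance alone gives about 1 in 20. They fell on 2 genes and in both genotypes. For Timp3, WT replicate 3 was low at 8.40, with the other WT arrays between 8.52 and 8.57, and KO replicate 2 was low at 8.49, with the other KO arrays between 8.69 and 8.73. For Mmp2, WT replicate 4 was low at 6.92, with the others between 7.22 and 7.27, and KO replicate 5 was low at 7.20, with the others between 7.35 and 7.38. No group of Timp1, Timp4, Mmp14 or Reck was marked in this way. WT replicate 4 and KO replicate 2 were each the sole array of a batch.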

How the results depend on the processing

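The median change of all genes was 0.07 as deposited, −0.003 with arrays centred on housekeeping genes without B2m and −0.08 with B2m, which itself had a change of 0.81. The calls over all genes moved from 6106 higher and 2599 lower to 4230 and 3232, and to 2723 and 4837, with these scalings. With B2m, members called higher numbered 2, Timp1 changed by 1.61, and the lists held 4 lower among other metalloproteinases, 2 higher and 8 lower among ADAMTS and related proteases, 4 lower among inhibitors, 6 higher and 5 lower among matrix genes and 3 lower among partners. Without B2m there were 2 lower among other metalloproteinases and 4 higher among ADAMTS and related proteases. With a fixed batch block, 1 other metalloproteinase and 0 matrix genes were called lower. In batch 2 alone Timp1 changed by 2.10, with 2 ADAMTS and related proteases higher and 1 lower, 1 plasminogen gene higher and 0 lower, 5 matrix genes higher and 0 lower, and 0 partners lower. In batch 4 alone Timp1 changed by 1.58, with 2 members higher, 2 ADAMTS and related proteases higher and 2 lower, 1 inhibitor higher, 4 matrix genes higher and 0 lower, and 7 partners higher and 0 lower; each of these fits had 4 arrays. Plasminogen genes called lower were 0 with quantile normalisation once more or median centring. Leaving out 1 array in turn gave 0 to 1 plasminogen genes, 0 to 1 matrix genes and 0 to 1 other metalloproteinases called lower (1 without WT replicate 4 or KO replicate 2), and a Timp1 change of 1.68 to 1.79. Background correction could not be varied, since only normalised values were used here. No paired analysis was possible because the replicate numbers follow the order of accession. Levels of single probes, isoforms and proteins were not analysed here.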
